A study of Mus musculus with 12 samples.

Results

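The genes described here code for the working parts of the lysosome, the acidic organelle in which a cell breaks down what it has taken up or recycled. They were picked by name as lysosomal genes, with earlier results of these data known, and the cathepsins were left out. The set comprised 14 genes of the V-ATPase proton pump, 8 of membrane proteins, 13 of hydrolases, 5 of other lumenal proteins and 2 of MiT/TFE transcription factors. These 42 genes were found among the 47643 gene identifiers of the count table, and each had at least 1 count.

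Bulk RNA sequencing was performed on brain cells of 5 male p16-3MR mice on a C57BL/6 background, aged 113, 115, 116, 116 and 116 weeks (mice 1 to 5). These mice carry a reporter transgene whose product includes red fluorescent protein (RFP), a luciferase and a viral thymidine kinase. The p16 promoter controls this transgene, and RFP fluorescence served as its readout. How closely the signal followed the promoter was not tested here. Viable cells were sorted on DAPI, Draq5 and RFP fluorescence, and every mouse gave 1 RFPneg and 1 RFPpos sample, which shared genotype, strain, sex and age and differed in the RFP gate. The labels RFPneg and RFPpos stand for the populations that the paper calls RFP-low and RFP-high. On genes, the RFPneg samples of mice 1 to 5 held 177287, 196103, 415834, 248471 and 299680 counts, and the RFPpos samples held 222560, 289713, 223052, 250482 and 242798. At this depth 1 count equals several CPM (counts per 1000000 of the library), so weakly expressed genes were measured coarsely. Reads on no gene made up 32.1% to 37.2% of the RFPneg samples and 38.4% to 48.6% of the RFPpos samples, without overlap, and the part of this difference in the results was not tested. The libraries counted a tag at the 3′ end of each transcript, so that counts are not in proportion to transcript length and CPM values of different genes can be set side by side.

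The V-ATPase has a V0 sector in the membrane, which carries protons into the lumen, and a V1 sector on the cytosolic side, which splits ATP to drive it. Hydrolases and their activator proteins work in the acid lumen, most of them delivered there by receptors for phosphorylated mannose, while membrane proteins shield the organelle and export its products. TFEB and TFE3, the MiT/TFE factors, are held in the cytosol when the kinase complex mTORC1 is active at the lysosome and otherwise enter the nucleus, where they bind E-boxes with the letters CACGTG near the start of many lysosomal genes. Microglia, the phagocytes of the brain, are rich in lysosomes, and inherited loss of many of these genes causes storage disease with loss of neurons.

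The comparison asked how these genes differed between the RFPpos and the RFPneg cells of the same mouse. Relative to all genes, 8 of 11 hydrolase genes tested, 4 of 5 of other lumenal proteins and 4 of 7 of membrane proteins were called higher in RFPpos samples and 0 of them relative to microglia transcripts, while 11.6% of all genes were higher and 10.4% lower on the first scale. Relative to 20 microglia transcripts 0 of the 36 members tested were called higher and 17 lower (47.2%), where 0.309% of all genes were higher and 69.2% lower. V-ATPase genes had 0 of 12 called in either direction on the first scale, and on the microglia scale, which lowers nearly every gene, 11 of 12 were lower with a median of −1.17 against −1.08 for all genes. At this depth a missing call does not show that a gene was unchanged. The balance among lysosomal transcripts, which no scaling touches, was described without a test. In bulk samples a different mixture of cells and a change within cells cannot be told apart in it, and neither was tested. Hydrolase and other lumenal transcripts together were 2.38 ± 0.345 times as abundant as V-ATPase transcripts in RFPneg samples and 4.04 ± 0.562 times as abundant in RFPpos samples (SD, n = 5 each).

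A gene was called at an adjusted p under 0.05 in edgeR's quasi-likelihood test with the mouse as a block. With counts scaled to all genes, 36 of the 42 members passed the minimum count, and 17 of them were called higher in RFPpos samples (47.2%) and 0 lower. Of all 4210 genes tested, 11.6% were called higher (489 genes) and 10.4% lower (438 genes), and DESeq2 called 292 higher and 395 lower. The median log2 fold change was 0.63 over the 36 members and 0.05 over all genes tested, with values above 0 for 28 members and for 2233 of the 4210 genes. At an unadjusted p under 0.05, 23 members were higher and 0 lower. Of the 4210 genes, 764 were higher and 647 lower at that threshold. No other tool or setting tried called a member lower. DESeq2 called 10 members higher, and 7 of the 17 had a log2 fold change above 1. In 12 members the RFPpos samples all lay above the RFPneg samples, and 10 of these 12 were called, the exceptions being *Asah1* and *Gm2a*. The share of all genes with such a separation was not determined, and 16 of the 20 microglia genes had it.

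The other 6 members (*Atp6v0c*, *Atp6v0d1*, *Ctns*, *Glb1*, *Sgsh* and *Tfeb*) had too few counts and were tested in a second fit with 11103 genes. There 5.26% of all genes were called higher (584 genes) and 8.04% lower (893 genes), and 18 of the 42 members were called higher and 0 lower. DESeq2 called 10 members higher in this larger set and 0 lower, and 0 were lower at an unadjusted p under 0.05. The 18 were the 17 named by the first fit and *Npc1*, the membrane protein that exports cholesterol from the lysosome, at 0.73 (standard error 0.25, edgeR adjusted p = 0.035). DESeq2 and both other scalings did not call *Npc1*, nor did the fits without the block or without mouse 2, 3, 4 or 5, where it was at 0.73, 0.84, 0.49 and 0.59 (adjusted p = 0.115, 0.0541, 0.301 and 0.178). None of the 6 weakly expressed members was called in edgeR, and none had an unadjusted p under 0.05. Without mouse 2, 389 genes were called higher in this fit.

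Microglia transcripts were higher in RFPpos samples as well. All 20 genes of a microglia list, none of them a member, were called higher in RFPpos samples, with a median log2 fold change of 1.19 and *Cx3cr1* as the most abundant gene. Their summed level was 18631, 11810.1, 13255, 11780.0 and 17188 CPM in the RFPneg samples of mice 1 to 5 and 34872, 28397, 30706, 29331 and 25791 CPM in the RFPpos samples. Every RFPpos sample lay above every RFPneg sample, and among RFPneg samples mice 1 and 5 were the highest. In bulk samples a larger share of microglia and more RNA of these genes per cell cannot be told apart, and the part of this difference in the lysosomal results was not tested.

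The members were therefore also read on a scale set by the summed counts of these 20 genes. On this microglia scale the median of all genes moved by −1.12 to −1.08, and of the 4210 genes 0.309% were called higher (13 genes) and 69.2% lower (2915 genes). Of the 36 members tested, 0 were called higher and 17 lower (47.2%), and their median was −0.50. By edgeR 0 members were higher at an unadjusted p under 0.05, and 0 were called higher by limma with voom weights. Measured from the median of all genes, the members' median was 0.58 on the first scale and 0.58 on the microglia scale, alike by construction, since a change of scale moves every gene by about the same amount. Without mouse 2, 10 members were called lower on the microglia scale, and 8 genes of the whole table were called higher there without mouse 3 or without mouse 5.

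**Figure D1:**
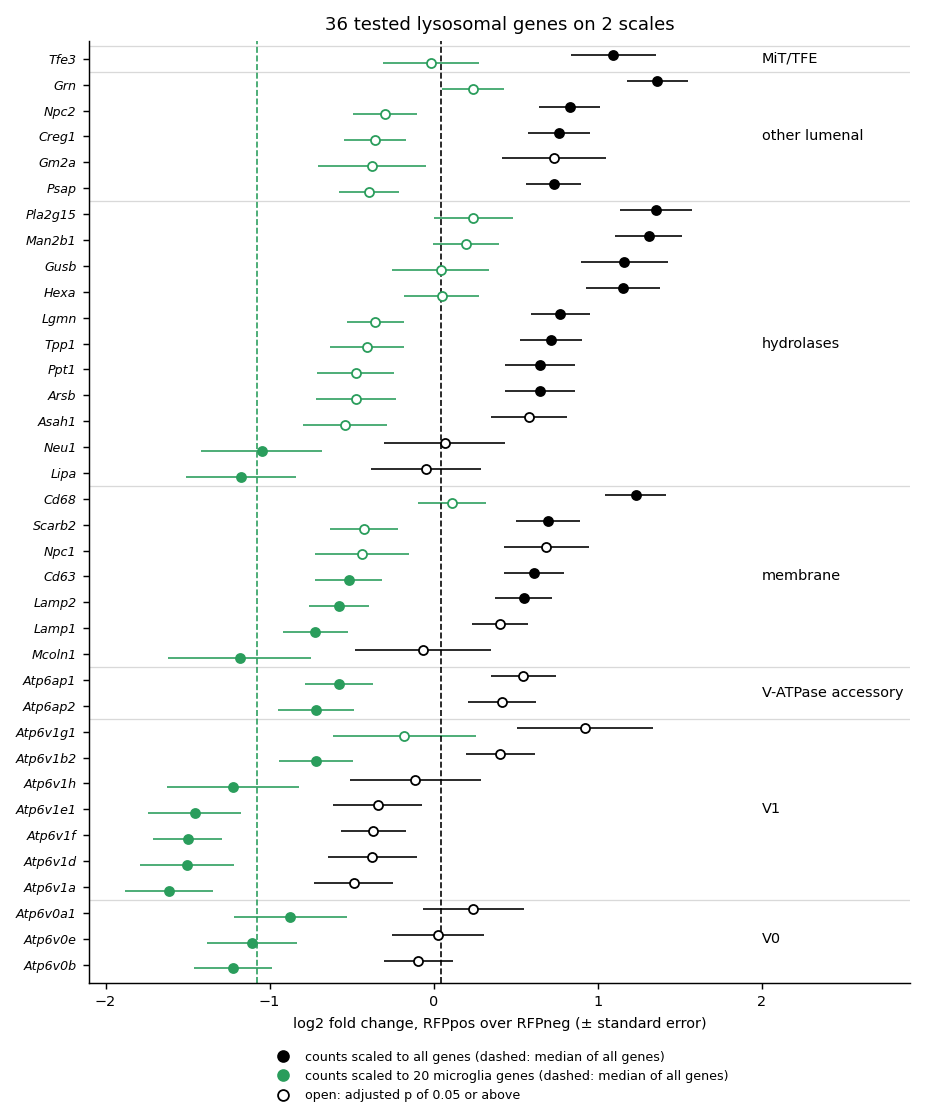
Log2 fold change of RFPpos over RFPneg for the 36 tested members (x axis) by gene and group (y axis), with bars of 1 standard error, n = 5 mice. Black points are scaled to all genes and green points to 20 microglia genes, filled points are called, and dashed lines mark the median of all genes on each scale: hydrolase and lumenal genes other than *Lipa* lie right of the black line, but on the microglia scale most lie below 0, and V-ATPase genes lie near or left of both lines except *Atp6v1g1*, *Atp6v1b2*, *Atp6v0a1* and the accessory genes.

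The median of the V-ATPase genes stood near that of all genes on both scales, but its subgroups differed. Scaled to all genes, the median was 0.03 for V0 subunits, −0.34 for V1 subunits and 0.48 for accessory genes, against 0.05 for all genes. On the microglia scale these medians were −1.11, −1.46 and −0.65, against −1.08 for all genes. Of the 12 V-ATPase genes, 0 were called higher and 0 lower scaled to all genes, against 11.6% and 10.4% of all genes. Among them 6 had a log2 fold change above 0, and the median was −0.03. On the microglia scale 11 of 12 were called lower (91.7%, against 69.2% of all genes), the exception being *Atp6v1g1*. The median there was −1.17, against −1.08 for all genes. At an unadjusted p under 0.05, *Atp6ap1* and *Atp6v1g1* were higher and 0 genes lower. DESeq2 called 0 of the 12. The edgeR likelihood ratio test, limma with voom weights, the fit without the mouse block and the fit without mouse 5 each called 1 gene higher, *Atp6ap1*. With fewer samples some calls on the microglia scale were lost while the direction stayed. Without mouse 2, 3 or 4 *Atp6ap1* was at −0.58, −0.55 and −0.47 (adjusted p = 0.0532, 0.0735 and 0.0932) and *Atp6v0a1* at −0.81, −0.71 and −0.65 (0.0841, 0.135 and 0.152). *Atp6ap2* was at −0.59 without mouse 2 (0.0606), *Atp6v1b2* at −0.59 without mouse 1 (0.054) and *Atp6v1h* at −1.03 without mouse 4 (0.0646).

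In the V1 sector, *Atp6v1f*, a subunit of the central stalk that turns during proton pumping (ENSMUSG00000004285, chr6:29467718-29470512, plus strand), had 288, 219, 243, 269.6 and 214 CPM in the RFPneg samples of mice 1 to 5 and 148, 173, 219.7, 256 and 128 CPM in the RFPpos samples. It was lower in the RFPpos sample of all 5 mice, although the groups overlapped through mice 3 and 4. The means were 247 ± 31.9 and 185 ± 52.4 CPM (SD, n = 5), and the log2 fold change of −0.37 (standard error 0.20, edgeR adjusted p = 0.205) did not pass the test. Per 10000 microglia counts, *Atp6v1f* had 154, 186, 183, 229 and 124 counts in RFPneg samples and 42.5, 60.8, 71.5, 87.1 and 49.5 in RFPpos samples. On that scale all RFPpos samples lay below all RFPneg samples, and the log2 fold change was −1.50 (standard error 0.21, edgeR adjusted p = 2.34e-05), the smallest p of the pump genes.

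*Atp6v1a*, the catalytic subunit that splits ATP, had 276, 204, 173, 133 and 143 CPM in RFPneg samples and 98.8, 110.5, 130.01, 144 and 128 CPM in RFPpos samples. The RFPneg sample of mouse 1 was the highest and the RFPpos sample of mouse 1 the lowest, and in mouse 4 the RFPpos sample was the higher of its pair, so that the groups overlapped. Its log2 fold change was −0.49 (standard error 0.24, edgeR adjusted p = 0.168), and −1.61 (adjusted p = 0.000118) on the microglia scale. *Atp6v1d* and *Atp6v1e1*, of the central and the peripheral stalk, had values of −0.37 and −0.34, and the regulatory subunit *Atp6v1h* had −0.11, none of them called with all genes as the scale. A transcript of the opposite strand, *Slc25a18*, overlaps the end of *Atp6v1e1*, and the strand setting of the counting is not given in the sources used here, but it had 41 counts over all samples against 304 for *Atp6v1e1*.

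A pair of V1 genes pointed the other way without passing the test. *Atp6v1g1*, of the peripheral stalk, had 67.7, 15.3, 43.3, 32.2 and 30.0 CPM in RFPneg samples and 49.4, 69.0, 80.7, 39.9 and 90.6 CPM in RFPpos samples. Mouse 1 was the exception among 5 mice, with the highest RFPneg value and a lower RFPpos value, and the groups overlapped. Its log2 fold change was 0.92 (standard error 0.42, edgeR adjusted p = 0.122) on 131 counts in all, and −0.18 (adjusted p = 0.711) on the microglia scale. *Atp6v1b2*, the ATP-binding partner of the catalytic subunit, had 0.41 (adjusted p = 0.19) and was higher in the RFPpos sample of 4 of 5 mice.

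In the V0 sector, *Atp6v0b* and *Atp6v0e*, of the proton-carrying ring and a small membrane subunit, had log2 fold changes of −0.09 and 0.03, and *Atp6v0a1*, the subunit along which protons cross, had 0.24. The adjusted p-values of these 3 genes lay between 0.645 and 0.959 in edgeR, and with the median-of-ratios or library size scaling the sign of *Atp6v0e* turned. Relative to microglia counts the 3 genes were called lower. *Atp6v0d1*, which joins the ring to the stalk, had 104 counts in all and stood at 0.34 (adjusted p = 0.744) in the fit of low-count genes. *Atp6v0c*, the main proteolipid of the ring, had 17 counts in all samples and −0.42 (adjusted p = 0.898). Its value is uncertain, since near-identical annotated copies of this gene can take its reads, although *Atp6v0c-ps1* and *Atp6v0c-ps2* had 0 counts here.

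The accessory proteins help the pump assemble. *Atp6ap1* (ENSMUSG00000019087, chrX:74297097-74304721, plus strand) had 158, 229, 248, 266 and 237 CPM in RFPneg samples and 292, 373, 363, 331 and 239 CPM in RFPpos samples. It was higher in the RFPpos sample of all 5 mice, by little in mouse 5, and the groups overlapped. The means were 228 ± 41.2 and 319.6 ± 55.1 CPM (SD, n = 5). The log2 fold change was 0.55 (standard error 0.20, edgeR adjusted p = 0.0544), with adjusted p-values of 0.0464 without the mouse block, 0.0376 in the likelihood ratio test, 0.0316 with voom weights and 0.0469 without mouse 5. It was called lower on the microglia scale, with −0.58 (adjusted p = 0.0215). *Atp6ap2*, also known as the prorenin receptor, had 0.41 (adjusted p = 0.174) and was called lower on the microglia scale with −0.72 (adjusted p = 0.0122). Its RFPpos sample of mouse 3 stood at 479.7 CPM and the other RFPpos samples between 214 and 275. With a mouse left out, the log2 fold change of *Atp6ap2* with all genes as the scale ranged from 0.21 to 0.51.

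**Figure D2:**
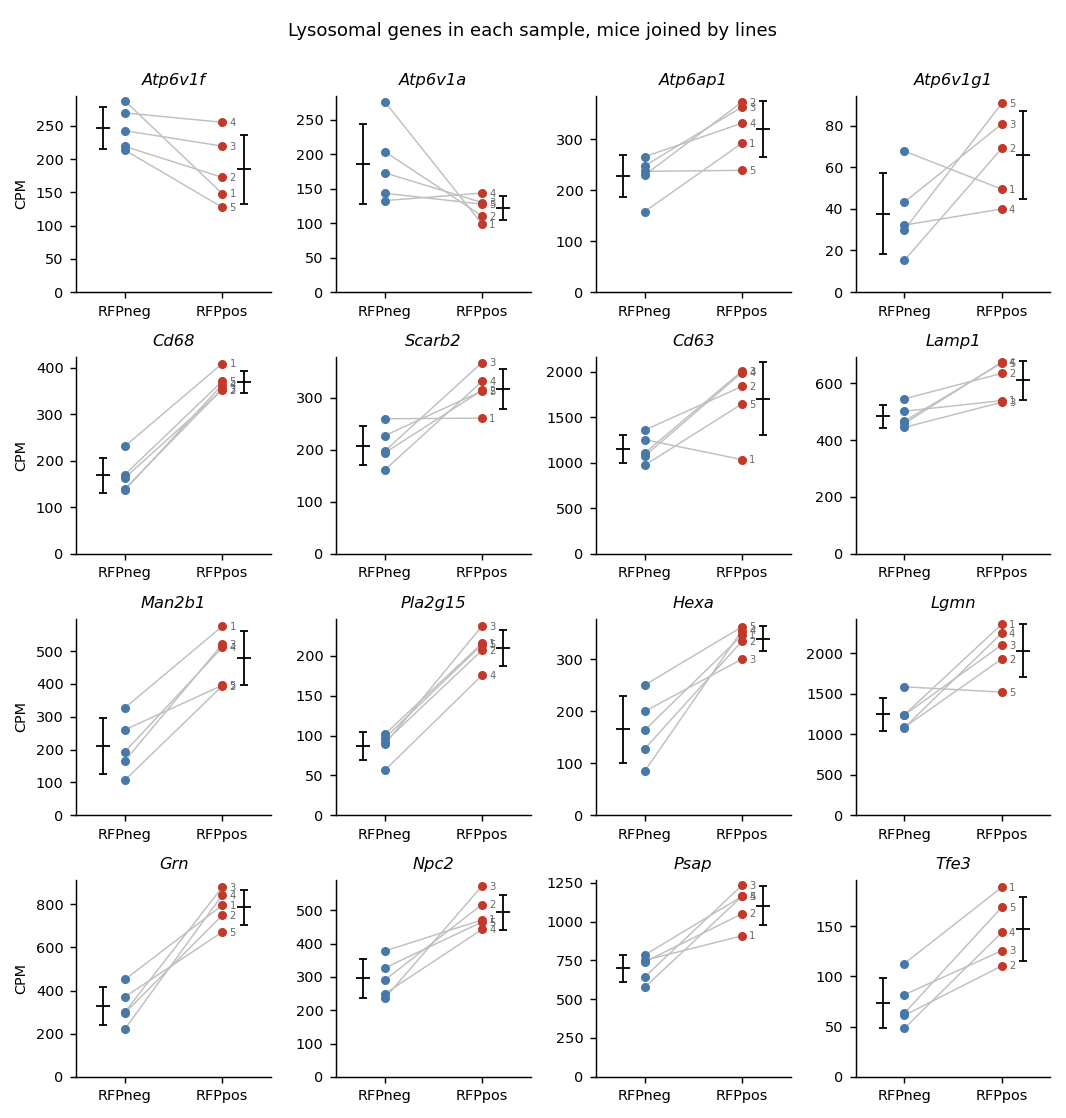
CPM (y axis) of 16 lysosomal genes in the RFPneg and RFPpos samples (x axis), with a line joining the samples of each mouse, the mouse number beside its RFPpos point and bars for mean and SD (n = 5). The V-ATPase genes in the top panels overlap between the groups, although in all 5 mice *Atp6v1f* is lower and *Atp6ap1* higher in the RFPpos sample. Genes such as *Grn*, *Man2b1* and *Cd68* have all RFPpos points above all RFPneg points in CPM. Scaled to microglia counts, these 3 genes overlap between the groups.

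Of the 7 membrane protein genes tested, 4 were called higher and 0 lower with all genes as the scale (median 0.61). These were 57.1% higher, against 11.6% of all genes higher and 10.4% lower. On the microglia scale 0 were called higher and 4 lower (57.1%, against 69.2% of all genes). The median there was −0.52, against −1.08 for all genes. *Cd68*, a heavily glycosylated protein of macrophage lysosomes (ENSMUSG00000018774, chr11:69664213-69666153, minus strand), had 231, 163, 139, 137 and 170.2 CPM in RFPneg samples and 409, 352, 354, 363 and 371 CPM in RFPpos samples. The RFPneg sample of mouse 1 was the highest of its group but lay far below every RFPpos sample. The means were 168 ± 38.1 and 369.8 ± 23.1 CPM (SD, n = 5) and the log2 fold change was 1.23 (standard error 0.19, edgeR adjusted p = 8.64e-05). Relative to microglia counts *Cd68* was at 0.11 (adjusted p = 0.633), not called.

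*Scarb2*, the receptor that carries glucocerebrosidase to the lysosome, had 259, 194, 197, 161 and 227 CPM in RFPneg samples and 261, 314, 368, 331 and 313 CPM in RFPpos samples. The groups did not overlap, although in mouse 1 the RFPpos value exceeded the RFPneg value by little. The log2 fold change was 0.70 (standard error 0.19, edgeR adjusted p = 0.0137), and −0.43 (adjusted p = 0.0735) on the microglia scale. *Cd63*, a tetraspanin of late endosomes and lysosomes, was the most abundant of the membrane genes, with 1252, 1356, 1104, 1071 and 971 CPM in RFPneg samples and 1033, 1836, 2004, 1988 and 1643 CPM in RFPpos samples. Mouse 1 went against the other 4 mice, with the lowest RFPpos value, which lay within the RFPneg range. Its log2 fold change was 0.61 (standard error 0.18, edgeR adjusted p = 0.0218) with all genes as the scale and −0.52 (adjusted p = 0.0322) on the microglia scale, where it was called lower.

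*Lamp1* and *Lamp2* code for the glycoproteins that line the lysosomal membrane. *Lamp1* had 502, 546, 445, 459 and 467 CPM in RFPneg samples and 539, 635, 534, 675 and 671 CPM in RFPpos samples. All 5 mice had the higher value in the RFPpos sample, with an overlap between groups through mice 1, 2 and 3. *Lamp1* did not pass the test, at 0.40 (standard error 0.17, edgeR adjusted p = 0.105), but was called higher with voom weights (adjusted p = 0.042). Per 10000 microglia counts, *Lamp1* had 269, 462, 336, 389 and 272 counts in RFPneg samples and 155, 224, 174, 230.0 and 260.3 in RFPpos samples, with all RFPpos values below all RFPneg values and a log2 fold change of −0.72 (standard error 0.20, edgeR adjusted p = 0.00484). *Lamp2* was called higher with all genes as the scale, at 0.55 (adjusted p = 0.0291), and lower on the microglia scale, at −0.58 (adjusted p = 0.0119).

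*Mcoln1*, the cation channel through which calcium leaves the lysosome, was at −0.06 (adjusted p = 0.937) and was called lower on the microglia scale, at −1.18 (adjusted p = 0.0225). *Npc1* stood at 0.68 (adjusted p = 0.0656) in the first fit and was higher in the RFPpos sample of 4 of 5 mice. It was called higher on that scale by the edgeR likelihood ratio test (adjusted p = 0.0432), with voom weights (0.0342) and without mouse 1 (0.018), and lower on the microglia scale without mouse 5, at −0.67 (0.0414). *Ctns*, which exports cystine, had 93 counts in all and 0.77 (adjusted p = 0.385) in the fit of low-count genes. With a mouse left out the value of *Ctns* ranged from 0.18 to 1.30. The *Cd68* call was kept under all 14 alternatives, and the other 3 calls were lost under some. With all genes as the scale, 2 membrane genes were called higher without mouse 2, 1 without mouse 3 and 1 without mouse 4, while the median-of-ratios and library size scalings each left 2 and DESeq2 left 1, and the likelihood ratio test called 5 and voom weights 6. *Scarb2* missed the threshold at 0.64 without mouse 3 (adjusted p = 0.0707) and 0.62 without mouse 4 (0.0511). Without mouse 2, 3, 4 or 5 *Cd63* was at 0.63, 0.54, 0.55 and 0.52 (0.0569, 0.105, 0.0666 and 0.0648), and without mouse 1, 2, 3 or 4 *Lamp2* was at 0.53, 0.59, 0.47 and 0.53 (0.0609, 0.0679, 0.144 and 0.0684), so that the fold changes stayed near those of 5 mice. Of the calls on the microglia scale, 1 was left without mouse 2 and 2 without mouse 4, where *Mcoln1* did not reach the minimum count, and there were 6 without mouse 5, with *Npc1* and *Scarb2* (−0.51, adjusted p = 0.045) added. There *Cd63* was at −0.36, −0.44, −0.56 and −0.54 without mouse 1, 2, 3 or 4 (0.14, 0.116, 0.0665 and 0.0565), and without mouse 2 *Lamp2* was at −0.49 (0.0637) and *Mcoln1* at −0.98 (0.0922).

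Of the 11 hydrolase genes tested, 8 were called higher and 0 lower with all genes as the scale (median 0.72). These were 72.7% higher, against 11.6% of all genes higher and 10.4% lower. On the microglia scale 0 were called higher and 2 lower, *Lipa* and *Neu1* (18.2%, against 69.2% of all genes). The median there was −0.41, against −1.08 for all genes. At an unadjusted p under 0.05, 0 hydrolase genes were lower on the first scale in edgeR, and DESeq2 called 5 higher and 0 lower. *Man2b1*, the lysosomal alpha-mannosidase that trims sugar chains of glycoproteins (ENSMUSG00000005142, chr8:85083270-85098282, plus strand), had 327, 107, 166, 193 and 260.3 CPM in RFPneg samples and 575, 393, 520.1, 511 and 395 CPM in RFPpos samples. The RFPneg samples ranged widely, from mouse 2 to mouse 1, and all of them lay below every RFPpos sample. The means were 211 ± 85.2 and 479 ± 81.0 CPM (SD, n = 5), and the fitted log2 difference was 1.31 (standard error 0.20, edgeR adjusted p = 0.000106).

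*Pla2g15*, a phospholipase of the lysosomal lumen, had 102, 91.8, 89.0, 56.3 and 96.8 CPM in RFPneg samples and 216, 207, 238, 176 and 214 CPM in RFPpos samples. Mouse 4 was the lowest in both groups, and the groups were far apart. Its log2 fold change was 1.35 (standard error 0.22, edgeR adjusted p = 0.000162), and on the microglia scale 0.24 (adjusted p = 0.373), the smallest p among the hydrolases with a value above 0 there. *Hexa*, the alpha subunit of the enzyme that degrades gangliosides, had 164, 127, 199.6, 84.5 and 250.3 CPM in RFPneg samples and 346, 335, 300.4, 355 and 362 CPM in RFPpos samples. The RFPpos values lay close together, whereas RFPneg values differed by mouse, and the groups did not overlap. Its log2 fold change was 1.15 (standard error 0.22, edgeR adjusted p = 0.000834). Relative to microglia counts *Man2b1* and *Hexa* had 0.20 and 0.05, neither of them called.

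*Lgmn*, an endopeptidase that cuts after asparagine, was the most abundant of the 42 members and was picked for its level after values were seen. It had 1241, 1086, 1238, 1083 and 1585 CPM in RFPneg samples and 2359, 1929.5, 2103, 2248 and 1519.8 CPM in RFPpos samples. Mouse 5 was the exception among 5 mice, with the highest RFPneg value and the lowest RFPpos value. The means were 1247 ± 204 and 2032 ± 328 CPM (SD, n = 5), the log2 fold change was 0.77 (standard error 0.18, edgeR adjusted p = 0.00392), and on the microglia scale it was −0.36 (adjusted p = 0.0806), where voom weights called it lower (adjusted p = 0.00927).

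Other enzymes called higher with all genes as the scale were *Gusb*, the beta-glucuronidase, *Tpp1*, a peptidase that removes tripeptides, *Ppt1*, which takes fatty acids off proteins, and *Arsb*, a sulfatase of glycosaminoglycans. *Gusb* had 1.16 (adjusted p = 0.0031) by edgeR, with all RFPpos samples above all RFPneg samples, and *Tpp1* had 0.72 (adjusted p = 0.0104), also without overlap, but was not called in DESeq2 (0.62, adjusted p = 0.0884). *Ppt1* at 0.65 (adjusted p = 0.0339) and *Arsb* at 0.65 (adjusted p = 0.0357) overlapped between the groups and lost the call in DESeq2, without a filter and with the median-of-ratios and library size scalings. Without mouse 1, 3, 4 or 5 *Arsb* was at 0.46, 0.72, 0.61 and 0.61 (0.16, 0.0677, 0.0878 and 0.0848), and without mouse 3, 4 or 5 *Ppt1* was at 0.53, 0.65 and 0.61 (0.163, 0.0692 and 0.0757). Near the end of *Ppt1* lies *Cap1* on the opposite strand, with 271 counts against 453 for *Ppt1*, and without the strand setting the share of *Cap1* reads in the *Ppt1* counts was not determined. *Asah1*, the acid ceramidase, had 0.58 (adjusted p = 0.08), with RFPpos samples all above RFPneg samples but no call. None of these 5 was called on the microglia scale, where their values lay between −0.54 and 0.04, except without mouse 1 (*Arsb*) and without mouse 5 (*Arsb*, *Asah1*, *Ppt1* and *Tpp1*) and with voom weights (*Asah1*), where those named were called lower.

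*Lipa*, the acid lipase that frees cholesterol and fatty acids, had 56.4, 61.2, 33.7, 92.6 and 66.7 CPM in RFPneg samples and 40.4, 75.9, 35.9, 99.8 and 41.2 CPM in RFPpos samples. In both groups mouse 4 was the highest and mouse 3 the lowest, and the groups overlapped almost fully. The log2 fold change was −0.05 (standard error 0.34, edgeR adjusted p = 0.94). It was called lower on the microglia scale, at −1.17 (adjusted p = 0.00604), as was the sialidase *Neu1* at −1.05 (adjusted p = 0.0185), which had 0.07 (adjusted p = 0.928) on the first scale. *Glb1*, the beta-galactosidase, had 86 counts in all and 0.88 (adjusted p = 0.302) in the fit of low-count genes. *Sgsh*, a sulfatase of heparan sulfate, had 38 counts and −0.36 (adjusted p = 0.877), not called. A single hydrolase gene (1 of 11) was called lower on the microglia scale without mouse 2, where *Neu1* was at −0.91 (0.081), and without mouse 5 there were 6.

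Of the other lumenal proteins 4 of 5 were called higher and 0 lower with all genes as the scale (median 0.77). These were 80% higher, against 11.6% of all genes higher and 10.4% lower. On the microglia scale 0 of 5 were called, where 69.2% of all genes were lower. The median there was −0.36, against −1.08 for all genes. On that scale edgeR gave 1 of these genes lower at an unadjusted p under 0.05. Voom weights called 2 lower there (*Creg1* at −0.37 and *Psap*) and the fit without mouse 5 called 1 (*Psap*). *Grn* codes for progranulin, which is cleaved to granulins in the lysosome and whose loss causes frontotemporal dementia or a storage disease (ENSMUSG00000034708, chr11:102430315-102437048, plus strand). Its levels were 451, 296, 301, 221 and 370.4 CPM in RFPneg samples and 795, 749, 879, 842 and 671 CPM in RFPpos samples. Every RFPpos sample lay above every RFPneg sample, with the smallest difference between groups from RFPneg of mouse 1 to RFPpos of mouse 5. The means were 328 ± 86.8 and 787 ± 81.2 CPM (SD, n = 5), and the log2 fold change was 1.36 (standard error 0.19, edgeR adjusted p = 2.89e-05), the smallest p of the 36 members. Per microglia count it was 0.24 (adjusted p = 0.255), with the higher value in the RFPpos sample of 4 of 5 mice. *Fam171a2* overlaps the end of *Grn* on the opposite strand and had 26 counts against 1393 for *Grn*.

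*Npc2*, which hands cholesterol to the membrane protein of *Npc1*, had 378, 291, 236, 249.5 and 327 CPM in RFPneg samples and 472, 518, 574, 443 and 465 CPM in RFPpos samples. The groups did not overlap, and mouse 4 was the lowest of the RFPpos samples. The log2 fold change was 0.83 (standard error 0.18, edgeR adjusted p = 0.00266), and −0.30 (adjusted p = 0.177) on the microglia scale. *Psap*, the precursor of saposins that present lipids to hydrolases, had 750.2, 739, 642, 576 and 784 CPM in RFPneg samples and 908, 1049, 1233, 1162 and 1161 CPM in RFPpos samples. Again the groups did not overlap, with mouse 1 the lowest of the RFPpos samples. Its log2 fold change was 0.73 (standard error 0.17, edgeR adjusted p = 0.00359). Scaled to microglia counts it was −0.39 (adjusted p = 0.0656), the smallest p among the lumenal genes below 0. *Creg1*, a lysosomal glycoprotein, was called higher at 0.77 (adjusted p = 0.0061), but not in DESeq2 (0.67, adjusted p = 0.0561), and *Gm2a*, the activator protein for ganglioside breakdown, had 0.73 (adjusted p = 0.108) without a call although its groups did not overlap.

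Of the MiT/TFE factors, *Tfe3* (ENSMUSG00000000134, chrX:7762560-7775202, plus strand) had 113, 61.2, 81.8, 48.3 and 63.4 CPM in RFPneg samples and 189, 110.5, 126, 144 and 169 CPM in RFPpos samples. All 5 mice had the higher value in the RFPpos sample, and the groups met where RFPneg of mouse 1 exceeded RFPpos of mouse 2. The log2 fold change was 1.09 (standard error 0.26, edgeR adjusted p = 0.00431) with all genes as the scale and −0.02 (adjusted p = 0.957) on the microglia scale, not called. *Tfeb* had 36 counts over all samples and a value of 0.67 (adjusted p = 0.722) in the fit of low-count genes, not called. With a mouse left out the value of *Tfeb* ranged from 0.30 to 0.97. Transcript levels give no account of where these proteins were in the cell.

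Levels were also summed by group of members. The 14 V-ATPase genes summed to 2070.1, 1836, 1888, 1787 and 1732 CPM in the RFPneg samples of mice 1 to 5 and 1591, 2033, 2224, 1932 and 1697 CPM in the RFPpos samples. The RFPpos sample was higher in 3 of 5 mice, with mice 1 and 5 the exceptions, and the groups overlapped, at 1862 ± 129.6 and 1895 ± 255 CPM (SD, n = 5). The 13 hydrolase genes summed to 2859.8, 2641, 2665, 2306 and 3157 CPM in RFPneg samples and 5046, 4269.7, 4618, 4938 and 4019.8 CPM in RFPpos samples. All RFPpos sums lay above all RFPneg sums, as they also did for the other lumenal genes, at 1692 ± 307 and 2974 ± 206 CPM, and for the membrane genes, at 2661 ± 268 and 3908 ± 538 CPM, though for hydrolase and lumenal genes together the order turned when sums were divided by microglia counts.

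Divided by the V-ATPase counts of the same sample, the counts of the 18 hydrolase and other lumenal genes gave ratios of 2.36, 2.38, 2.21, 2.00 and 2.93 in RFPneg samples and 4.94, 3.59, 3.55, 4.11 and 3.99 in RFPpos samples. The ratio was higher in the RFPpos sample of all 5 mice without overlap, with mouse 1 the highest of the RFPpos samples and mouse 5 the highest of the RFPneg samples. No scale enters this ratio, since both sums come from the same library. The mixture of cells can still enter it, and its part was not tested. *Lgmn* was the most abundant of the genes summed. Divided by the summed microglia counts, V-ATPase counts gave 0.111, 0.155, 0.142, 0.152 and 0.101 in RFPneg samples and 0.0456, 0.0716, 0.0724, 0.0659 and 0.0658 in RFPpos samples. All RFPpos values lay below all RFPneg values, and the RFPpos sample of mouse 1 was the lowest. The hydrolase and other lumenal counts over microglia counts were 0.262, 0.370, 0.315, 0.304 and 0.295 in RFPneg samples and 0.225, 0.257, 0.257, 0.271 and 0.263 in RFPpos samples. They were lower in the RFPpos sample of all 5 mice but overlapped through mice 1, 4 and 5, at 0.309 ± 0.0390 and 0.255 ± 0.0173 (SD, n = 5). Whether the groups of members differed from each other was not tested, since the members were chosen with results known.

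**Figure D3:**
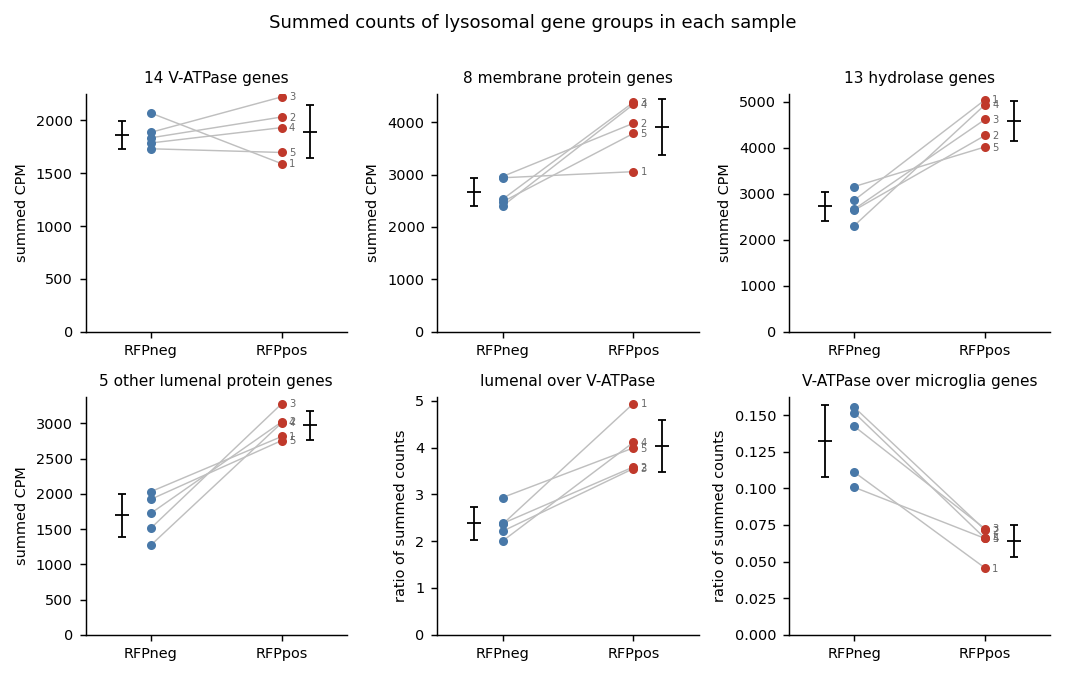
Summed CPM (y axis) of 4 groups of lysosomal genes, and ratios of summed counts, in the RFPneg and RFPpos samples (x axis), with a line joining the samples of each mouse and bars for mean and SD (n = 5). V-ATPase sums overlap between the groups and the other 3 sums do not, the ratio of lumenal to V-ATPase counts lies between 2.00 and 2.93 in RFPneg samples and between 3.55 and 4.94 in RFPpos samples, and V-ATPase counts over microglia counts are lower in every RFPpos sample.

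Markers of most other brain and blood cells had lower sums in RFPpos samples, and their part in the lysosomal results was not tested. Endothelial genes, of which 7 of 7 tested were lower and *Flt1* the most abundant, summed to 1495, 4737, 4985, 6331 and 3847 CPM in RFPneg samples and 71.9, 117, 143, 283 and 202 CPM in RFPpos samples. Neutrophil genes, 3 of 3 tested lower and led by *S100a8*, summed to 2251, 2499, 6354, 3996 and 2142 CPM in RFPneg samples and 44.9, 96.6, 148, 0 and 0 CPM in RFPpos samples. In RFPpos samples *Cxcr2* and *Ly6g* were at 0, and mice 4 and 5 had no count of the neutrophil list. Genes of monocytes and antigen presenting cells, 4 of 4 tested lower and led by *H2-Aa*, summed to 1410.1, 1122, 1448, 1566 and 1321 CPM in RFPneg samples and 67.4, 155, 175, 283 and 128 CPM in RFPpos samples, with *Chil3* and *Ly6c2* at 0 in RFPpos samples.

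Oligodendrocyte genes, 6 of 6 tested lower and led by *Mbp*, summed to 3029, 1703, 1152, 1062 and 1401 CPM in RFPneg samples and 359, 162, 300.4, 179.7 and 194 CPM in RFPpos samples. Both genes of oligodendrocyte precursors, *Cspg4* and *Pdgfra*, were at 0 in RFPpos samples and summed to 45.1, 35.7, 16.8, 32.2 and 20.02 CPM in RFPneg samples. Mural cell genes, 2 of 2 tested lower and led by *Vtn*, summed to 440.0, 489.5, 233, 479 and 324 CPM in RFPneg samples and 13.5, 55.2, 76.2, 112 and 74.1 CPM in RFPpos samples, and *Kcnj8*, *Myh11* and *Tagln* were at 0 in RFPpos samples. In these lists every RFPpos sum lay below every RFPneg sum. Red blood cell genes, 1 of 1 tested lower and led by *Hbb-bs*, summed to 818, 668, 1111, 1421 and 330.4 CPM in RFPneg samples and 85.4, 3.45, 0, 47.9 and 65.9 CPM in RFPpos samples, with *Alas2* at 0 in RFPpos samples. Lymphocyte genes, with 0 of 8 over the minimum count and *Nkg7* the most abundant, summed to 113, 25.5, 86.6, 88.5 and 73.4 CPM in RFPneg samples and 4.49, 6.90, 8.97, 24.0 and 4.12 CPM in RFPpos samples, and *Cd3d*, *Cd3e*, *Cd3g*, *Cd79a* and *Nkg7* were at 0 in RFPpos samples. Neuron genes, 0 of 1 tested called and *Map1b* the most abundant, summed to 147, 148, 197, 137 and 164 CPM in RFPneg samples and 112, 58.7, 53.8, 19.96 and 70.0 CPM in RFPpos samples. These 3 lists did not overlap between the groups either, and all were lower in RFPpos samples.

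The last 5 lists overlapped between the groups. Astrocyte genes, 1 of 6 tested lower and led by *Slc1a2*, summed to 3396, 4926, 4333, 3296 and 3871 CPM in RFPneg samples and 889.6, 2627, 5021, 5010.3 and 4185 CPM in RFPpos samples, with the RFPpos sample of mouse 1 lowest. Glial progenitor and ensheathing glia genes, 2 of 3 tested higher and led by *Fabp7*, summed to 265, 755, 1000.4, 342 and 784 CPM in RFPneg samples and 103, 1184, 1542, 1353 and 1680.4 CPM in RFPpos samples, higher in RFPpos of every mouse but mouse 1. Border macrophage genes, 0 of 1 tested called and led by *Mrc1*, summed to 192, 184, 168, 189 and 220.2 CPM in RFPneg samples and 153, 318, 166, 148 and 185 CPM in RFPpos samples. Fibroblast genes, 1 of 2 tested lower and led by *Dcn*, summed to 90.2, 143, 156, 249.5 and 133 CPM in RFPneg samples and 0, 38.0, 80.7, 139.7 and 8.24 CPM in RFPpos samples, with *Lum* at 0 in RFPpos samples. Choroid plexus and ependyma genes, 1 of 1 tested lower and led by *Ttr*, summed to 5116, 3009, 897, 1751 and 971 CPM in RFPneg samples and 346, 162, 430.4, 1633 and 437 CPM in RFPpos samples. That list was lower in the RFPpos sample of every mouse, with the RFPpos value of mouse 4 within the RFPneg range.

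Lysosomal genes beyond the 42 members were read from 4 lists of 103 genes, of which 58 passed the minimum count. With all genes as the scale 10 were called higher (17.2%, against 11.6% of all genes) and 4 lower (6.9%, against 10.4%), and the median was 0.24, whereas on the microglia scale 1 was called higher and 32 lower (55.2%, against 69.2% of all genes). Of 9 other V-ATPase subunits and assembly factors tested, 0 were called higher and 1 lower, with a median of −0.22, and on the microglia scale 0 were higher and 6 lower (66.7%). At an unadjusted p under 0.05 edgeR gave 2 of these 9 as higher and 2 as lower. The gene called lower was *Vma21*, which assembles the V0 sector, with 95.9, 96.9, 77.0, 68.4 and 60.1 CPM in RFPneg samples and 35.9, 51.8, 35.9, 15.97 and 24.7 CPM in RFPpos samples. The groups did not overlap, and the log2 fold change was −1.22 (standard error 0.37, edgeR adjusted p = 0.02). *Vma21* missed the threshold at −1.26 without mouse 3 (0.0571) and −1.06 without mouse 4 (0.07).

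Of 16 other hydrolases tested, 5 were called higher and 1 lower with all genes as the scale (median 0.78). These were 31.2% higher and 6.25% lower, against 11.6% and 10.4% of all genes. On the microglia scale 0 were higher and 5 lower (31.2%, against 69.2% of all genes, median −0.33). Among those called higher, *Ifi30*, a thiol reductase of antigen processing, was at 1.28 (adjusted p = 0.000955) by edgeR. *Rnaset2a* was at 0.86 (adjusted p = 0.00285), uncertain because *Rnaset2b* is nearly identical to it, and *Acp2* and *Dnase2a* were also called. *Smpdl3a*, a phosphodiesterase related to acid sphingomyelinase, went the other way, with 254, 280.5, 286, 362 and 327 CPM in RFPneg samples and 35.9, 135, 175, 164 and 111 CPM in RFPpos samples. All RFPpos samples lay below all RFPneg samples, and the log2 fold change was −1.28 (standard error 0.24, edgeR adjusted p = 0.00061) with all genes as the scale and −2.41 (adjusted p = 1.12e-06) on the microglia scale.

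Of 21 other membrane and sorting proteins tested, 4 were called higher and 0 lower with all genes as the scale (median 0.16). These were 19% higher, against 11.6% of all genes higher and 10.4% lower. On the microglia scale 1 was higher and 12 lower (57.1%, against 69.2% of all genes). At an unadjusted p under 0.05, 0 of the 21 were lower on the first scale in edgeR. *Laptm5*, a lysosomal membrane protein of blood and immune cells, was called higher on both scales, at 1.76 (adjusted p = 6.54e-07) and 0.64 (adjusted p = 0.00462). Its levels were 886, 464, 565, 619.8 and 811 CPM in RFPneg samples and 2354, 1988, 1905, 2316 and 2002 CPM in RFPpos samples, far apart in every mouse. *Slc29a3*, a nucleoside exporter, was at 1.25 (adjusted p = 0.000336), *Sumf1*, which activates sulfatases, at 1.34 (adjusted p = 0.0099), and *Cd164* was also called. *Sumf1* missed the threshold at 1.07 without mouse 1 (0.0516). Of 12 regulators of mTORC1 and MiT/TFE factors tested, *Fnip1* was called higher at 0.99 (adjusted p = 0.00196). *Rraga* at −0.69 (adjusted p = 0.0408) and *Lamtor5* at −1.21 (adjusted p = 0.0478) were called lower. These were 8.33% higher and 16.7% lower, against 11.6% and 10.4% of all genes. On the microglia scale 0 were higher and 9 lower (75%, against 69.2% of all genes). *Fnip1* belongs to the folliculin complex, and *Rraga* and *Lamtor5* to the platform that holds mTORC1 at the lysosome. Neither of these 2 was called in DESeq2 or without a filter, nor *Rraga* without the block and *Lamtor5* with voom weights, nor either without mouse 2, 3, 4 or 5, where *Rraga* was at −0.70, −0.78, −0.64 and −0.56 (0.106, 0.0729, 0.114 and 0.12) and *Lamtor5* at −1.25, −1.02, −1.22 and −1.18 (0.0958, 0.171, 0.127 and 0.0881).

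**Figure D4:**
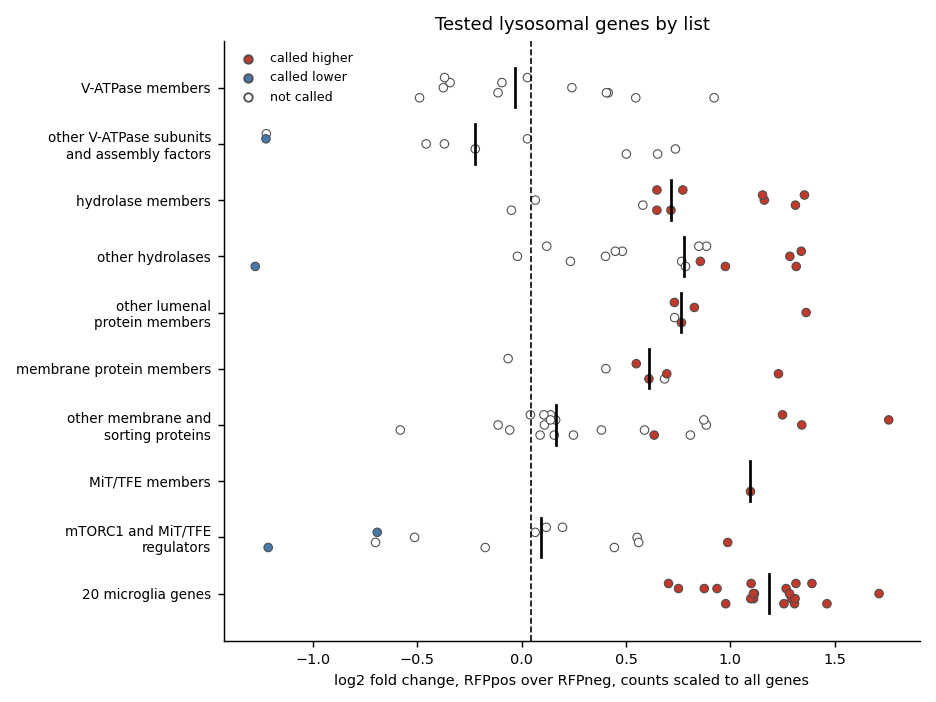
Log2 fold change of RFPpos over RFPneg with counts scaled to all genes (x axis) for every tested lysosomal gene and the 20 microglia genes, by list (y axis). Each point is a gene, red or blue where called, black bars are list medians and the dashed line is the median of all genes: both V-ATPase lists lie around or left of that line and both hydrolase lists mostly right of it but left of most microglia genes, and on the microglia scale these hydrolase medians are −0.41 and −0.33.

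Promoter sequence was examined because MiT/TFE factors bind a known motif and *Tfe3* was called higher in CPM, though not on the microglia scale. RefSeq promoters of GRCm38.p6, each with 250 bases before and 50 after the start, were found for 37 of the 42 members, 45 promoters in all. No entry was found for *Npc1*, *Atp6v1b2*, *Asah1*, *Atp6v1h* and *Atp6v1g1*. The letters CACGTG, which read alike on both strands, were in 9 of the 45 member promoters (20%), in 442 of 4401 promoters of tested genes (10%) and in 2349 of all 32851 promoters (7.15%). The longer GTCACGTG, which contains the shorter letters and was searched on both strands, was in 7 of 45 (15.6%), 215 of 4401 (4.89%) and 738 of 32851 (2.25%). Among the groups, 4 of 13 V-ATPase promoters held CACGTG, 2 of 8 of membrane genes, 3 of 13 of hydrolases, 0 of 6 of other lumenal proteins and 0 of 5 of MiT/TFE factors. Of the 93 promoters of the other lysosomal genes, 27 held it (29%).

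The 9 genes were *Atp6v0b*, *Atp6v0d1*, *Atp6v0e*, *Atp6v1a*, *Lamp1*, *Mcoln1*, *Glb1*, *Lgmn* and *Sgsh*, with 14 matches. Of these, *Lgmn* was called higher in RFPpos samples with all genes as the scale, and 16 of the 17 members called there had no match. The following stretches, which end at the base before the start, show CACGTG in capitals in the called gene and in genes not called on that scale. *Lgmn* is at chr12:102439093-102439172 (minus strand), *Lamp1* with 4 matches at chr8:13159080-13159160 (plus strand), *Mcoln1* with 2 at chr8:3500428-3500518 (plus strand), *Atp6v0b* with 2 at chr4:117887330-117887409 (minus strand) and *Atp6v1a* with 1 at chr16:44139260-44139410 (minus strand). GENCODE M21 places the outermost start of *Lgmn* at 102439813 and of *Atp6v1a* at 44139705, so by that annotation these stretches lie inside the genes. For *Mcoln1* it gives 3500457, within the stretch shown.
Lgmn: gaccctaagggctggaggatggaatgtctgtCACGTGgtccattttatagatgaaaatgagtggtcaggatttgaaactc
Lamp1: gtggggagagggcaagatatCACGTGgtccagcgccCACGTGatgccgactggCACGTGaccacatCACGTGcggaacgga
Mcoln1: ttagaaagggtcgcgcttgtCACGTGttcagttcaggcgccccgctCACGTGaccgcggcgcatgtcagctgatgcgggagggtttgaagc
Atp6v0b: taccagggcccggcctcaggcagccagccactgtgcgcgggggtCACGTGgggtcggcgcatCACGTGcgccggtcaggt
Atp6v1a: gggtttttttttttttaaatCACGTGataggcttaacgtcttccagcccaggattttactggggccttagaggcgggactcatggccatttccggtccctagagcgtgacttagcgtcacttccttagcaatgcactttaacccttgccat
In *Lamp1* the matches began 61, 45, 28 and 15 bases before the start, in *Mcoln1* 71 and 45 bases, in *Atp6v0b* 36 and 18 bases, in *Lgmn* 49 bases and in *Atp6v1a* 131 bases. A match describes these letters in this window, and binding was not measured.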

How the data were processed

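RNA of RFPneg and RFPpos brain cells sorted from the same 5 mice was measured in 10 bulk samples. The other 2 of the 12 samples are from single cells and were not analysed here. Libraries were made with the Lexogen QuantSeq 3′ FWD kit with molecular identifiers, and the authors deposited counts per gene and sample, made according to the methods with the Lexogen pipeline for these libraries on a commercial platform, which were used as they are. The labels list the build mm10 (GRCm38) for all samples beside a single-cell tool, and do not say whether it holds for the bulk counts, and the annotation and strand setting of that pipeline are not given in the sources used here. Gene identifiers were given symbols and positions from GENCODE M21 (GRCm38), which named 47224 of 47643. Reads on no gene (32.1% to 37.2% in RFPneg and 38.4% to 48.6% in RFPpos samples) and ambiguous reads (0.295% to 0.436%) were left out, and 18571 genes had at least 1 count.

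Counts were fitted in R 4.3.3 with edgeR 4.0.16 (glmQLFit and glmQLFTest, TMM factors, filterByExpr with a minimum count of 10, a total of 15 and thus about 40.7 CPM in 5 samples), with the mouse as a block. P-values were adjusted after Benjamini and Hochberg over all genes tested, and 0.05 was the threshold. A second fit took all genes with at least 15 counts in all samples. A further fit used the summed counts of 20 microglia genes as library sizes. Log2 fold changes are fitted values with their standard errors, and CPM are counts over the library total. The counts ranged from 177287 to 415834 per sample, so that 1 count is 5.64 CPM in the smallest library and 2.40 CPM in the deepest.

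The mouse numbers of the 2 populations were paired as labelled. After group means were removed, the correlation between the samples of mice 1 to 5 was 0.22, −0.04, 0.14, −0.01 and 0.02, so the values neither show nor contradict the pairing, which rests on the methods. Replicates are separate mice.

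The members, 15 marker lists and 4 lists of other lysosomal genes were chosen with earlier results of these data known, so they were described by counts and medians beside those of all genes, without a test of a list. Every member is named at least once. Values per sample are given, within each subgroup, for the 3 called members with the smallest p and any member called lower with all genes as the scale (0 were), and for the smallest p in each direction on the microglia scale. Of each list of other lysosomal genes the 3 called genes with the smallest p in each direction were to be named, and 1 of them is left out of the text. *Atp6ap1*, *Atp6v1a*, *Atp6v1g1*, *Lgmn*, *Acp2*, *Dnase2a* and *Cd164* were added after their values were seen.

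Alternatives were a fit without the block, the edgeR likelihood ratio test, DESeq2 1.42.0, limma 3.58.1 with voom weights, median-of-ratios and library size scaling, no filter, an absolute log2 fold change above 1, counts thinned to 177287 per sample, 8 microglia surface genes as the scale and each mouse left out. The code was tested on simulated data. Sums, promoters (RefSeq, GRCm38.p6) and figures used Python 3.11.15, pandas 2.3.3, numpy 2.4.6 and matplotlib 3.10.9.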

Additional observations from a re-analysis of the deposited data

Results flagged for a closer look

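Of 156 groups of 5 samples examined, 10 held a sample far from the other 4, by a gap of more than 0.71 of the range of the group. By chance about 1 in 20 groups stands apart in this way, or 7.8 of 156, and no explanation was weighed.

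Among members, *Atp6v0c* stood at 14.4 CPM in RFPneg of mouse 3 (others 4.02 to 6.67), on few counts. *Atp6ap2* was at 479.7 CPM in RFPpos of mouse 3 (others 214 to 275), and *Ctns* at 94.1 CPM in the same sample (others 20.7 to 37.1). *Pla2g15* was at 56.3 CPM in RFPneg of mouse 4 (others 89.0 to 102), and *Arsb* at 280.5 CPM in RFPneg of mouse 2 (others 180.2 to 199.6). The V1 subunits summed to 1224 CPM in RFPneg of mouse 1 (others 809 to 926). The ratio of V-ATPase counts to microglia counts was 0.0456 in RFPpos of mouse 1 (others 0.0658 to 0.0724).

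Among markers, border macrophage genes summed to 318 CPM in RFPpos of mouse 2 (others 148 to 185). In RFPpos of mouse 4, lymphocyte genes summed to 24.0 CPM (others 4.12 to 8.97) and choroid plexus and ependyma genes to 1633 CPM (others 162 to 437).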

How the results depend on the processing

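Of the 17 members called higher with all genes as the scale, 7 were called under all 14 alternatives tried (*Cd68*, *Grn*, *Gusb*, *Hexa*, *Man2b1*, *Pla2g15* and *Tfe3*). Of the 17 called lower on the microglia scale, 8 were called under all 8 alternatives (*Atp6v0b*, *Atp6v0e*, *Atp6v1a*, *Atp6v1d*, *Atp6v1e1*, *Atp6v1f*, *Lamp1* and *Lipa*). In no alternative was a member called lower on the first scale or higher on the microglia scale.

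DESeq2, which moved the median of all genes by −0.10, called 292 genes and 10 members higher with all genes as the scale, among them 5 hydrolases and 1 membrane protein. Among low-count genes it called 865 genes, 279 higher and 586 lower, and 10 members higher. An absolute log2 fold change above 1 left 288 genes, 7 members, 4 hydrolases, 1 membrane protein and 1 other lumenal protein higher, fewer by construction. Without a filter 834 genes were lower. The median-of-ratios and library size scalings, which moved the median of all genes by −0.10 and −0.07, each left 2 membrane proteins called higher. Without the mouse block, in the likelihood ratio test and with voom weights, 1 V-ATPase gene was higher (*Atp6ap1*). Leaving out the block changed no other member's call on this scale, and on the microglia scale it lost *Cd63* (16 members lower). With voom weights 4 hydrolases and 2 other lumenal proteins were lower on the microglia scale. The causes were not tested.

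Leaving out each mouse in turn gave, among low-count genes, 389 to 532 genes higher. On the microglia scale it gave 8 to 15 genes higher, 10 to 24 members lower, 1 to 6 membrane proteins lower, 1 to 6 hydrolases lower and 0 to 1 other lumenal proteins lower. With all genes as the scale it gave 0 to 1 V-ATPase genes and 1 to 4 membrane proteins higher. A fit of 4 mice has fewer samples.

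The sign turned in 12 members, all of them uncalled on the scale named. With all genes as the scale, *Atp6v0e* (0.03) was at −0.0851 in DESeq2, −0.0695 with median-of-ratios, −0.0351 with library size, −0.0069 with thinned counts and −0.22 to 0.26 with a mouse left out. *Neu1* (0.07) was at −0.0264 in DESeq2, −0.0324 with median-of-ratios and −0.0442 to 0.19 with a mouse left out, and *Lipa* (−0.05) at 0.0101 without the block and −0.17 to 0.0642. With a mouse left out *Atp6v0a1* ranged from −0.0020 to 0.42, *Atp6v1h* from −0.51 to 0.0421 and *Mcoln1* from −0.37 to 0.0759. On the microglia scale the ranges were −0.51 to 0.12 for *Atp6v1g1*, −0.0008 to 0.17 for *Cd68*, −0.19 to 0.18 for *Gusb*, −0.11 to 0.24 for *Hexa* and −0.24 to 0.14 for *Tfe3*. Among low-count genes *Sgsh* was at 0.0067 without the block and −1.39 to 0.11 with a mouse left out. Some uncalled members kept their sign but moved widely with a mouse left out. Among low-count genes these included *Atp6v0c* (−0.52 to −0.16) and *Atp6v0d1* (0.21 to 0.42). With all genes as the scale they included *Atp6v1a* (−0.63 to −0.31), *Atp6v1e1* (−0.53 to −0.16) and *Atp6v1b2* (0.26 to 0.53). The causes were not tested.

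Of the other comparisons of a single gene with an alternative, 530 kept direction and side of the threshold with all genes as the scale, 52 lost the call and 8 gained it. On the microglia scale these counts were 250, 17 and 12, and among low-count genes 74, 10 and 0. With 8 microglia surface genes as the scale the same 17 members were called lower. At this depth members that reached 40.7 CPM in fewer than 5 samples were not tested in the first fit.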
